A study of Sus scrofa with 16 samples.

Results

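The genes described here are the enzymes and regulators of fatty acid synthesis in pig liver, namely ACLY, ME1, ACACA, FASN, SCD, ELOVL6, GPAM, SREBF1, MLXIPL and THRSP. Liver transcript levels were measured in 16 pigs (Sus scrofa) of 20 kg body weight on 1-colour Agilent arrays, with 1 array per pig. The 8 low-RFI pigs were of the strain RFIneg and the 8 high-RFI pigs of the strain RFIpl, and all 16 were fed ad libitum. RFI is residual feed intake, the feed an animal eats above or below what its growth and maintenance predict. The study asks how gene expression in liver differs between these strains, which were selected on RFI. Each pig is a separate sample per the labels, and p-values measure the spread between pigs. Each direction of selection is a single strain, so selection and any other strain difference cannot be told apart. Of the 43603 probes on the array, 24 were found for 8 of the 10 genes: 17 probes of 5 genes through the gene symbol in the files (FASN 3, ACACA 2, SCD 9, ME1 1, SREBF1 2), 4 through a RefSeq accession (ACLY 3, which the files call ACL, and MLXIPL 1), and 3 through the written-out gene name (the other probe of ME1, and GPAM 2, which the files call GPAT). ELOVL6 and THRSP were not analysed here. All 24 probes were well above background on all 16 arrays and belonged to the 30097 probes tested, and none was saturated.

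Liver makes fatty acids from surplus carbohydrate in the cytosol. ACLY splits citrate into acetyl-CoA, ACACA turns acetyl-CoA into malonyl-CoA, and FASN joins these units into palmitate with NADPH that ME1 helps to supply. ELOVL6 lengthens the product, SCD inserts a double bond, and GPAM attaches the fatty acid to glycerol phosphate on the way to triglyceride. SREBF1 (encoding SREBP-1) and MLXIPL (ChREBP) are the transcription factors through which insulin and glucose raise these genes, and THRSP is a small nuclear and cytosolic protein that promotes the pathway. In pigs most fatty acid synthesis takes place in adipose tissue rather than in liver.

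Every probe is an oligonucleotide of 60 bases. The 6 below, printed 5′ to 3′ as the files give them, are shown to identify what was measured for the genes of the pathway whose values are described at most length, and each has at least 1 reading frame without a stop codon. No base is set in capitals, since no part of a probe is singled out.
FASN A_72_P647699: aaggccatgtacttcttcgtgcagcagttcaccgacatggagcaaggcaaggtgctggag
SCD A_72_P558694: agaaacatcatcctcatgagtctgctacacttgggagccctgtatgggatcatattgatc
ACACA A_72_P442314: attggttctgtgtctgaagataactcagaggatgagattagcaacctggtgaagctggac
ACACA A_72_P305844: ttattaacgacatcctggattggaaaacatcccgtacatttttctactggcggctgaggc
GPAM A_72_P632621: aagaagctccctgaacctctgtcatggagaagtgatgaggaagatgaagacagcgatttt
ACLY A_72_P710913: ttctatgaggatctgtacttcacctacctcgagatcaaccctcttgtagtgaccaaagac
A gene is represented below by its brightest probe unless another probe is named, and of these 6 that is A_72_P442314.

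A level is the log2 processed signal of a probe minus the 75th percentile of its array, so a level of 0 is that of a fairly bright probe and 1 unit is a doubling. Levels of different probes are not set against each other. The arrays lay on 4 slides with 2 low-RFI and 2 high-RFI pigs each. The deposited scanner files are numbered 1 to 8 and 55 to 62, with 4 low-RFI and 4 high-RFI pigs in each run of numbers, and the labels do not say what the numbers stand for. Pigs are named here by line and replicate number, and replicates 1 to 4 of each line have the numbers 1 to 8. The number of probes well above background lay between 28580 and 34980 per array. The scanner software marked 5 arrays for evaluation, those of high-RFI pigs 1, 2, 3, 6 and 8 and of 0 low-RFI pigs, and the noise of replicated probes averaged 6.97% on the arrays of low-RFI pigs and 8.04% on those of high-RFI pigs. The number of arrays limits the precision. The tissue label was checked against 6 hepatocyte markers, and ALB was at 9.06 to 9.76 and TTR at 8.38 to 9.05 in the 16 pigs. A summed level here is log2 of the sum of the unlogged levels, so the brightest marker weighs most. The summed level of the 6 ranged from 11.15 to 11.55 among low-RFI livers and from 10.96 to 11.46 among high-RFI livers. Of 5 tested adipocyte markers, ADIPOQ was at −5.30 to −4.43 and CIDEA at −3.73 to −1.60. The others were brighter, LEP at −1.58 to −0.96, LIPE at −1.295 to −0.38 and FABP4 at −2.335 to 0.25. The summed level of the 5 ranged from 0.42 to 0.94 among low-RFI livers and from 0.38 to 1.24 among high-RFI livers. In whole liver, fewer cells of a type and less RNA per cell cannot be told apart.

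The line comparison asked whether livers of low-RFI pigs differ from those of high-RFI pigs in these transcripts. None of the 24 probes passed. limma called 0 of 24 at an adjusted p under 0.05, against 0.00997% of all tested probes, and 0 of 24 had an unadjusted p under 0.05, against 5.45% of all tested probes. The estimates were mostly below 0: 22 of 24 changes, low-RFI minus high-RFI, were negative, with a median of −0.25 beside a median of −0.001 over all tested probes. Probes of 1 gene measure the same transcript, so these 24 are not 24 separate results, and 7 of the 8 genes were negative by their brightest probe. For FASN, ACACA, MLXIPL and GPAM the sign turned when single pigs were left out, as it did for ME1. Without the 5 marked arrays, all of high-RFI pigs, the change was −0.44 for FASN and −0.75 for SCD, and array noise as a covariate gave −0.84 and −1.39 (limma adjusted p = 0.823 and 0.781). Adjusted p ran from 0.979 to 0.998, and the lines overlapped in all 8 genes (0.0433% of tested probes did not overlap).

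FASN, the synthase itself, was at 5.66 to 8.499 in low-RFI livers (median 7.45) and at 6.90 to 8.47 in high-RFI livers (median 7.28). The low-RFI pigs held both the lowest and the highest level, and the high-RFI pigs lay inside their range. Low-RFI livers averaged 7.30 ± 1.02 and high-RFI livers 7.51 ± 0.57 (SD, n = 8 each), a limma change of −0.20 (SE 0.378, adjusted p = 0.998). The 95% interval of this change ran from −0.999 to 0.593, or 0.5-fold to 1.51-fold. FASN probe A_72_P647699 gave −0.28.

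SCD, the desaturase that makes oleate and palmitoleate, had the most negative line change of the 8 genes. Its levels were 4.12 to 7.92 in low-RFI livers (median 6.36) and 5.71 to 7.83 in high-RFI livers (median 6.72). Low-RFI pigs 1, 2 and 3 lay below every high-RFI pig and low-RFI pig 8 above every one. The change was −0.47 (SE 0.49, adjusted p = 0.979, 95% interval −1.50 to 0.56), and the other 8 probes of SCD gave −0.24 to −0.42, with −0.30 for A_72_P558694.

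ACACA, the rate-limiting carboxylase, was at −0.79 to 1.83 in low-RFI livers (median 0.83) and −0.03 to 2.43 in high-RFI livers (median 0.45). Its change was −0.07 (SE 0.402, adjusted p = 0.998, 95% interval −0.92 to 0.78). ACLY, the source of cytosolic acetyl-CoA, was at 3.37 to 5.47 in low-RFI livers (median 4.45) and 4.15 to 4.86 in high-RFI livers (median 4.45). The ACLY ranges overlapped, with the low-RFI pigs spread more widely on either side. The limma change of ACLY was −0.18 (SE 0.269, adjusted p = 0.989, 95% interval −0.75 to 0.38). Its probe A_72_P710913 gave −0.18 and its probe A_72_P447091 gave −0.04.

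ME1, the malic enzyme that yields NADPH, was at −2.09 to −0.21 in low-RFI livers (median −1.03) and −2.24 to 0.15 in high-RFI livers (median −1.24). Its probes pointed in opposite directions, at +0.10 (SE 0.331) for the brightest probe and −0.55 for A_72_P306288, and neither passed (adjusted p = 0.998 and 0.979 by limma). GPAM, the mitochondrial acyltransferase of glycerolipid synthesis, was at 0.97 to 4.60 in low-RFI livers (median 2.92) and 1.83 to 4.19 in high-RFI livers (median 2.71). The GPAM change of −0.06 (SE 0.516, adjusted p = 0.998) had the widest 95% interval of the 8, from −1.15 to 1.02. A difference between lines of about 2-fold in either direction lies inside that interval. The other GPAM probe, A_72_P632621, gave −0.255.

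The regulators varied least between pigs. SREBF1 was at 2.14 to 2.64 in low-RFI livers (median 2.35) and 1.90 to 3.02 in high-RFI livers (median 2.41), a change of −0.14 (SE 0.144, adjusted p = 0.979, 95% interval −0.44 to 0.16). Its other probe, A_72_P326973, gave +0.10, so the direction of SREBF1 was not settled between its probes. The brightest probe of SREBF1 has a GC content of 81.7%, the highest of the 24, and A_72_P326973 has 66.7%. MLXIPL was at 1.21 to 2.36 in low-RFI livers (median 1.95) and 1.63 to 2.31 in high-RFI livers (median 1.88), a change of −0.07 (SE 0.16, adjusted p = 0.998, 95% interval −0.41 to 0.27).

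**Figure D1:**
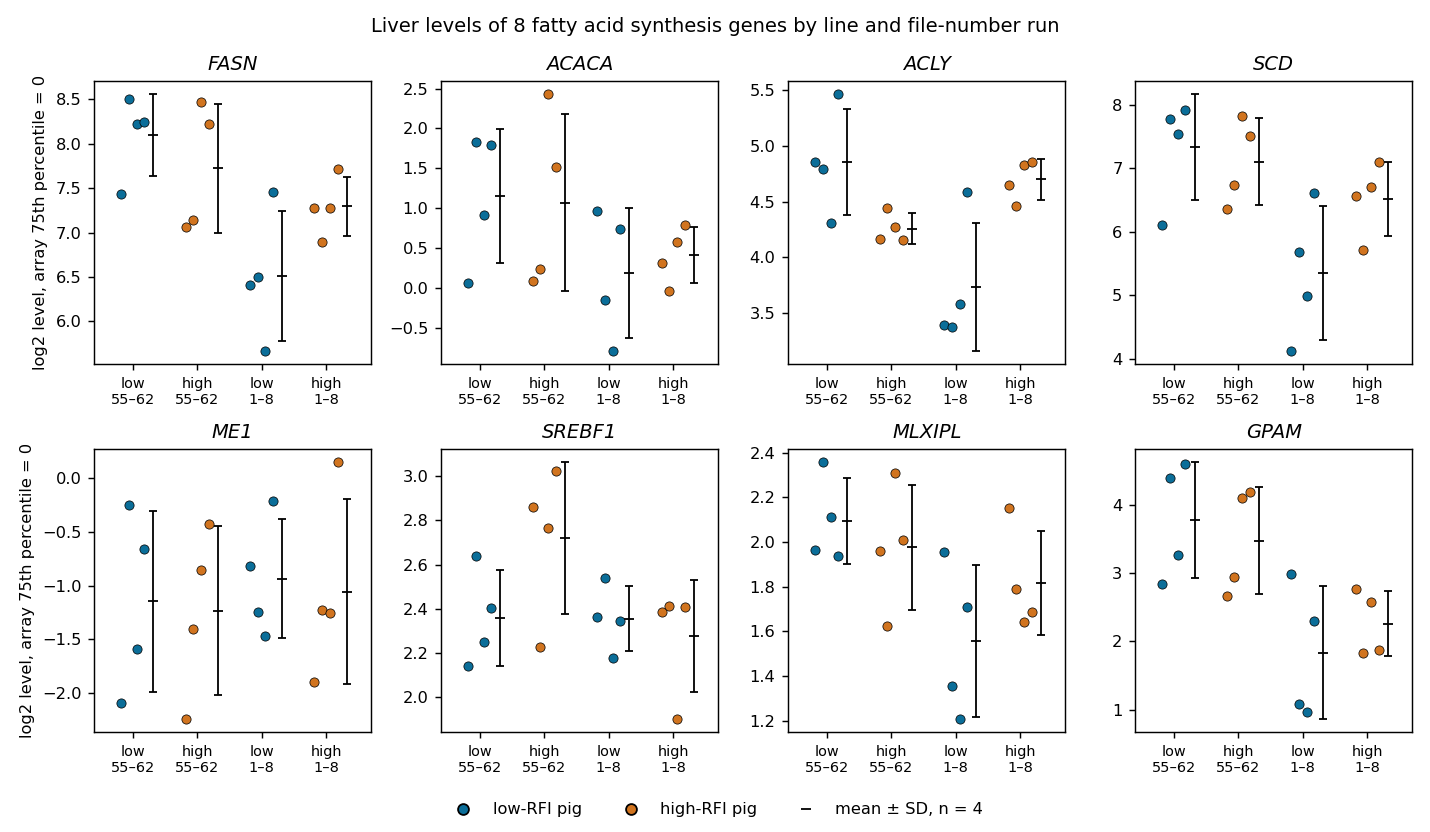
Level of each gene (log2, array 75th percentile at 0) in each pig, by line and by run of file numbers, with the mean and SD of each group of 4. FASN of low-RFI pigs averaged 8.10 in numbers 55 to 62 and 6.51 in numbers 1 to 8, while the lines overlapped in every panel.

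Changes between the runs of file numbers had larger estimates than those between the lines. With line in the model, 22 of 24 probes were higher in numbers 55 to 62 than in numbers 1 to 8, with a median change of +1.27, beside +0.04 over all tested probes. limma called 2 of 24 probes, both of GPAM, against 1.93% of all tested probes (1.03% in the positive direction). At an unadjusted p under 0.05 there were 18 of 24, all positive, against 25.3% of all tested probes (14.4% positive). Probes of 1 gene measure the same transcript, and 9 of the 24 are of SCD. By the brightest probe of each gene, 7 of 8 changes were positive, with a median of +0.58 beside −0.02 over 3974 named genes. Of the 8 genes, 1 was called and 5 had an unadjusted p under 0.05, against 75 and 976 of the 3974. The runs overlapped in all 8 genes by their brightest probe, beside 0.467% of tested probes that did not overlap. As the numbers have no stated meaning, this difference has no named condition behind it.

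GPAM rose in numbers 55 to 62. Its level was 2.67 to 4.60 there (median 3.69), against 0.97 to 2.99 in numbers 1 to 8 (median 2.09). All 8 pigs of numbers 55 to 62 lay above the mean of numbers 1 to 8, though the lowest of them lay below low-RFI pig 1 and high-RFI pig 1. The change was +1.58 (SE 0.359, 2.99-fold, limma adjusted p = 0.0441), and the other probe, A_72_P632621, gave +1.72 (SE 0.296, adjusted p = 0.0215). The call of the brightest probe was lost without any of low-RFI pigs 2, 3, 4, 6, 7 and 8 or high-RFI pigs 2, 3, 4, 7 and 8 (changes 1.42 to 1.66, adjusted p = 0.0515 to 0.0922). A_72_P632621 lost its call without high-RFI pig 4 (adjusted p = 0.0566) or high-RFI pig 7 (adjusted p = 0.053). Without the 5 marked arrays the changes were 1.84 and 1.93 and neither passed (adjusted p = 0.183 and 0.15), nor did they with array noise as a covariate (1.60 and 1.74, adjusted p = 0.0889 and 0.0586). The brightest GPAM probe also lost its call with slide as a block (adjusted p = 0.0536) and with no filter on dim probes (adjusted p = 0.0819). The count of called probes was 0 without high-RFI pig 4 or 7, 6 without high-RFI pig 5, 3 without low-RFI pig 5, and 1 without each of the other pigs named above.

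The other lipid-building enzymes had changes of like sign that did not pass. SCD was at 6.11 to 7.92 in numbers 55 to 62 (median 7.52) and 4.12 to 7.09 in numbers 1 to 8 (median 6.14), a change of +1.28 (SE 0.393, adjusted p = 0.0768). Its 9 probes gave +1.28 to +1.71, with adjusted p of 0.0768 to 0.121. FASN was at 7.06 to 8.499 in numbers 55 to 62 (median 8.22) and 5.66 to 7.72 in numbers 1 to 8 (median 7.09), a change of +1.01 (SE 0.298, adjusted p = 0.0705, 95% interval 0.38 to 1.64). For both SCD and FASN, 8 of 8 pigs of numbers 55 to 62 lay above the mean of numbers 1 to 8. FASN passed without high-RFI pig 5 (+1.16, adjusted p = 0.0462) and with array weights (+1.07, adjusted p = 0.0458).

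ACACA gave +0.81 (SE 0.362, adjusted p = 0.177) and MLXIPL +0.35 (SE 0.138, adjusted p = 0.137). The change was +0.34 (SE 0.264, adjusted p = 0.43) for ACLY and +0.22 (SE 0.135, adjusted p = 0.309) for SREBF1. ME1 was the exception in sign, at −0.19 (SE 0.337, adjusted p = 0.743), and its other probe was at −0.10. Both ME1 estimates were smaller in size than their SE, so the direction of ME1 between the runs was not settled. Whether the run change of ME1 differed from those of the other enzymes was not tested.

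**Figure D2:**
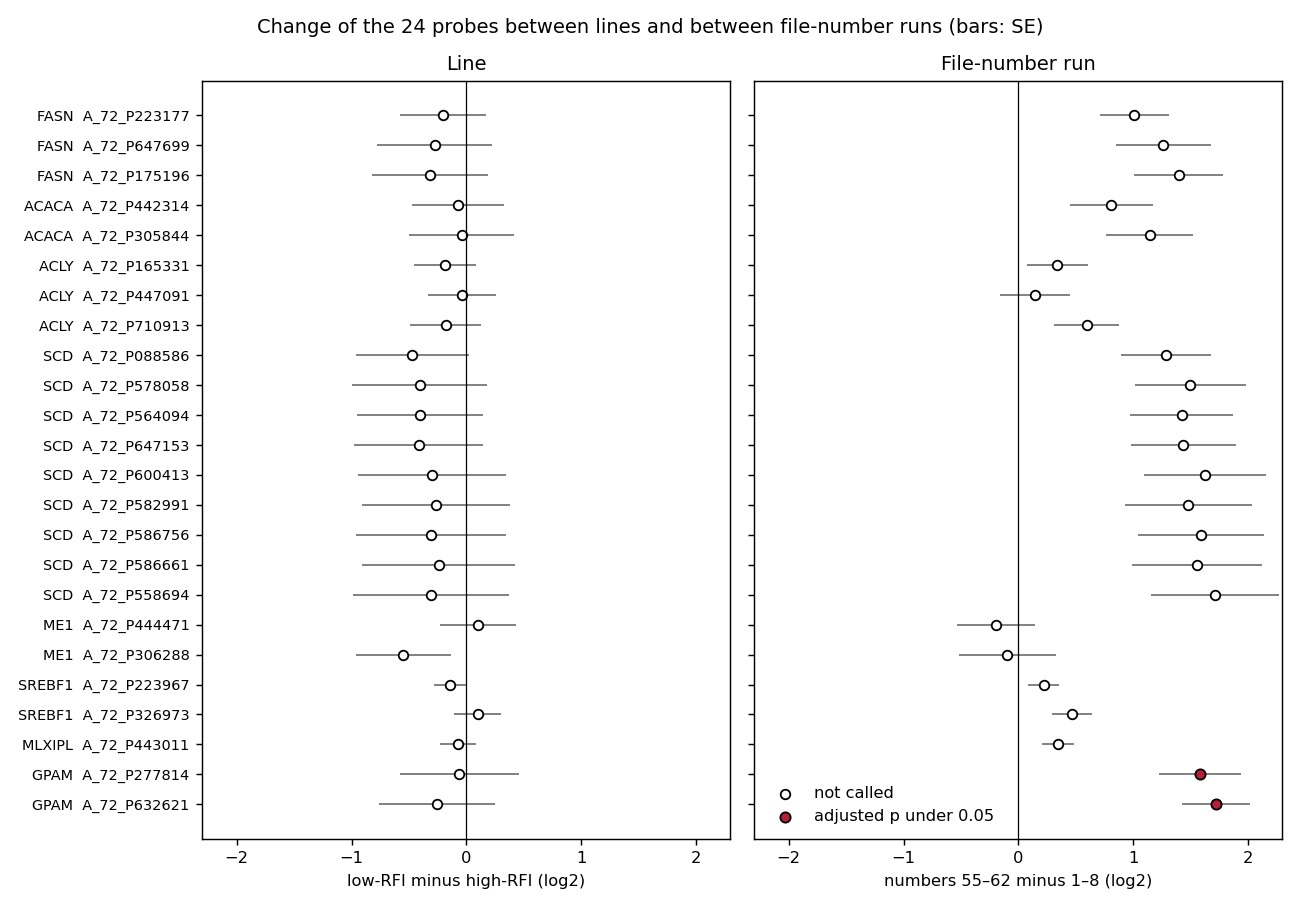
Limma change (log2) of each of the 24 probes with its SE, between lines on the left and between runs of file numbers, with line in the model, on the right. Red points are the 2 GPAM probes at an adjusted p under 0.05, and the 9 SCD probes lie close together at +1.28 to +1.71 on the right.

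Each slide held 2 pigs of each run. Within single slides the run change of FASN was 0.79, 0.59, 1.79 and 0.87 on slides 1 to 4. That of GPAM was 1.18, 0.35, 2.84 and 1.96, and that of SCD 1.01, 1.31, 1.76 and 1.06. All 3 were positive on every slide, and slide 3 was the highest for each of them. By their brightest probes ACLY and MLXIPL were positive on every slide as well, and the other genes were not. The ACLY probe A_72_P447091 gave −0.18, 0.615, 0.17 and −0.02, and +0.15 over all slides (limma adjusted p = 0.788). ACACA gave 0.50, −0.39, 2.135 and 0.995 on slides 1 to 4. SREBF1 gave −0.22, 0.11, 0.41 and 0.59, and ME1 gave 0.07, −1.15, 0.11 and 0.19. Array measures were close in the runs: noise averaged 7.32% in numbers 55 to 62 and 7.69% in numbers 1 to 8, and 2 and 3 of the arrays were marked. The summed level of the hepatocyte markers was 11.17 to 11.55 in numbers 55 to 62 and 10.96 to 11.25 in numbers 1 to 8, and that of the 5 adipocyte markers 0.38 to 1.24 and 0.42 to 1.18. With array noise as a covariate the run change was +0.89 for FASN and +1.09 for SCD, and without the marked arrays it was +1.21 and +1.49 (limma adjusted p = 0.147, 0.161, 0.239 and 0.266). The part of the marker levels in the run change was not tested.

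Whether the line change differed between the runs was tested by an interaction term. In numbers 55 to 62, 20 of 24 probes were higher in low-RFI livers, with a median change of +0.40 beside −0.01 over all tested probes. limma called 0 of 24 there, against 0.0299% of all tested probes, and 2 had an unadjusted p under 0.05, both positive, against 9.42% (4.06% positive). In numbers 1 to 8, 21 of 24 were lower in low-RFI livers, with a median of −0.91 beside +0.02. Again 0 of 24 were called, against 0% of all tested probes, and 5 had an unadjusted p under 0.05, all negative, against 4.12% (2.36% negative). limma called 0 of 24 for the difference of these changes, against 0% of all 30097 tested probes, and 4 of 24 had an unadjusted p under 0.05, all positive, against 6.21% (2.69% positive). The 2 probes were of ACLY, the 5 of ACLY and SCD, and the 4 of ACLY and FASN. By the brightest probe of each gene, 7 of 8 were higher in numbers 55 to 62, with a median of +0.175. In numbers 1 to 8, 6 of 8 were lower, with a median of −0.34. An unadjusted p under 0.05 was seen for 1 and 2 of the 8, and for 2 in the difference. Among 3974 named genes it was seen for 358, 155 and 248. As none of the 24 was called, the opposite signs are given as estimates, and no difference between the runs passed.

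ACLY came nearest. In numbers 55 to 62 it was at 4.86, 4.79, 4.31 and 5.47 in low-RFI pigs 5 to 8, against 4.16, 4.45, 4.27 and 4.15 in high-RFI pigs 5 to 8. In numbers 1 to 8 it was at 3.40, 3.37, 3.58 and 4.59 in low-RFI pigs 1 to 4, against 4.65, 4.46, 4.83 and 4.86 in high-RFI pigs 1 to 4. Low-RFI pigs 1, 2 and 3 stood below the other 13 pigs, and in each run the lines overlapped by 1 low-RFI pig. The line change of ACLY was +0.60 (SE 0.261, adjusted p = 0.494) in numbers 55 to 62 and −0.96 (SE 0.261, adjusted p = 0.762) in numbers 1 to 8. Their difference was 1.56 (SE 0.37, limma adjusted p = 0.445, unadjusted p = 0.00072). For FASN the changes were +0.38 and −0.79 (difference 1.17, SE 0.539, adjusted p = 0.794), and for SCD +0.23 and −1.17 (difference 1.41, SE 0.728, adjusted p = 0.827).

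**Figure D3:**
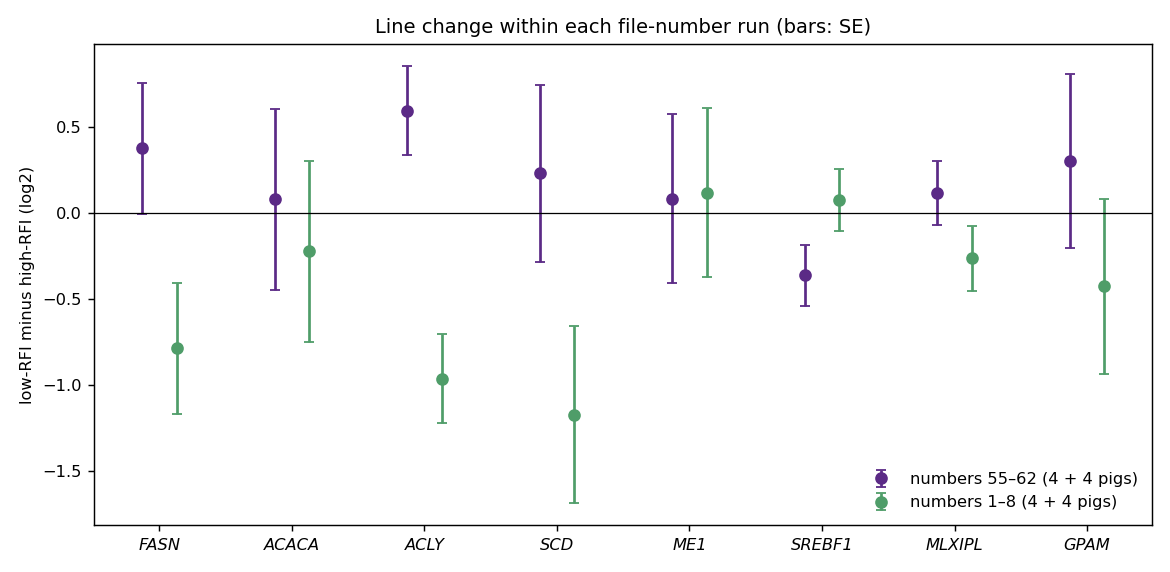
Line change, low-RFI minus high-RFI (log2), of each gene within each run of file numbers, with its SE, from 4 low-RFI and 4 high-RFI pigs per run. ACLY, FASN and SCD lie above 0 in numbers 55 to 62 and below 0 in numbers 1 to 8, and no difference between the runs passed.

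The genes varied widely between pigs whatever the line. From the lowest to the highest pig the span was 14.0-fold for SCD, 12.4-fold for GPAM, 9.36-fold for ACACA and 7.14-fold for FASN. It was 5.27-fold for ME1 and 4.26-fold for ACLY, against 2.22-fold for MLXIPL and 2.18-fold for SREBF1. These spans depend on the probe, since the other FASN probes gave 14.1-fold and 11.4-fold, the other SCD probes 21.0-fold to 44.7-fold and the other ME1 probe 8.46-fold. The SD over pigs of GPAM exceeded that of 98.4% of tested probes, that of SCD 98.3%, of ACACA 96.3%, of FASN 95.6%, of ME1 92.8% and of ACLY 86.2%. Those of MLXIPL and SREBF1 exceeded 47.4% and 38.9%, and that of the other SREBF1 probe 68.7%. In the mean of the standardised levels of the 8 genes, low-RFI pig 6 was highest (1.18), followed by high-RFI pig 7 (1.05), low-RFI pig 8 (0.98) and high-RFI pig 8 (0.90). Low-RFI pigs 3 (−1.50), 2 (−0.97) and 1 (−0.54) were lowest, so both extremes held low-RFI pigs.

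Levels of FASN, SCD, ACACA and GPAM moved together from pig to pig. Each tested probe was regressed on the FASN level with line in the model, and 13 of 21 probes of the other 7 genes passed, all with a positive slope, against 0.861% of all probes so tested (0.588% positive). At an unadjusted p under 0.05 there were 18 of 21, all positive, against 17.5% (8.64% positive). Of these 21 probes, 9 are of SCD. By the brightest probe of each gene, 3 of 7 passed, all positive, against 49 of 3973 named genes (31 positive). At an unadjusted p under 0.05 there were 5 of 7 genes, all positive, against 790 of the 3973 (335 positive). A slope is the log2 change for each log2 unit of FASN. All 9 probes of SCD passed, with slopes of 1.20 to 1.64 and limma adjusted p of 0.000261 to 0.0011, the highest slope being that of A_72_P558694. ACACA had a slope of 0.90 (SE 0.146, adjusted p = 0.00942) and GPAM of 1.13 (SE 0.196, adjusted p = 0.0151). Their other probes passed as well, at 0.98 (A_72_P305844, adjusted p = 0.0228) and 1.02 (A_72_P632621, adjusted p = 0.0408).

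MLXIPL had a slope of 0.30 (SE 0.076, adjusted p = 0.071) and passed only without low-RFI pig 1 (0.34, adjusted p = 0.0285) and with array weights (0.30, adjusted p = 0.0319). ACLY (0.44, SE 0.141, adjusted p = 0.132, and 0.60 with adjusted p = 0.0507 for A_72_P710913), ME1 (0.35, SE 0.202, adjusted p = 0.378) and SREBF1 (0.12, SE 0.09, adjusted p = 0.498) did not pass. With the run of file numbers in the model as well, 9 of 9 SCD probes passed (adjusted p = 0.0264 to 0.0397), while ACACA (0.98, adjusted p = 0.0953) and GPAM (0.82, adjusted p = 0.229) did not. The share of all probes called with the run in the model is not given here. GPAM also missed the threshold without low-RFI pig 6 (1.09, adjusted p = 0.0612) or low-RFI pig 8 (1.04, adjusted p = 0.0528), and without the 5 marked arrays neither ACACA nor GPAM passed (adjusted p = 0.113 each). With slide as a block they missed it as well (0.84 and 1.17, adjusted p = 0.0557 and 0.0553).

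**Figure D4:**
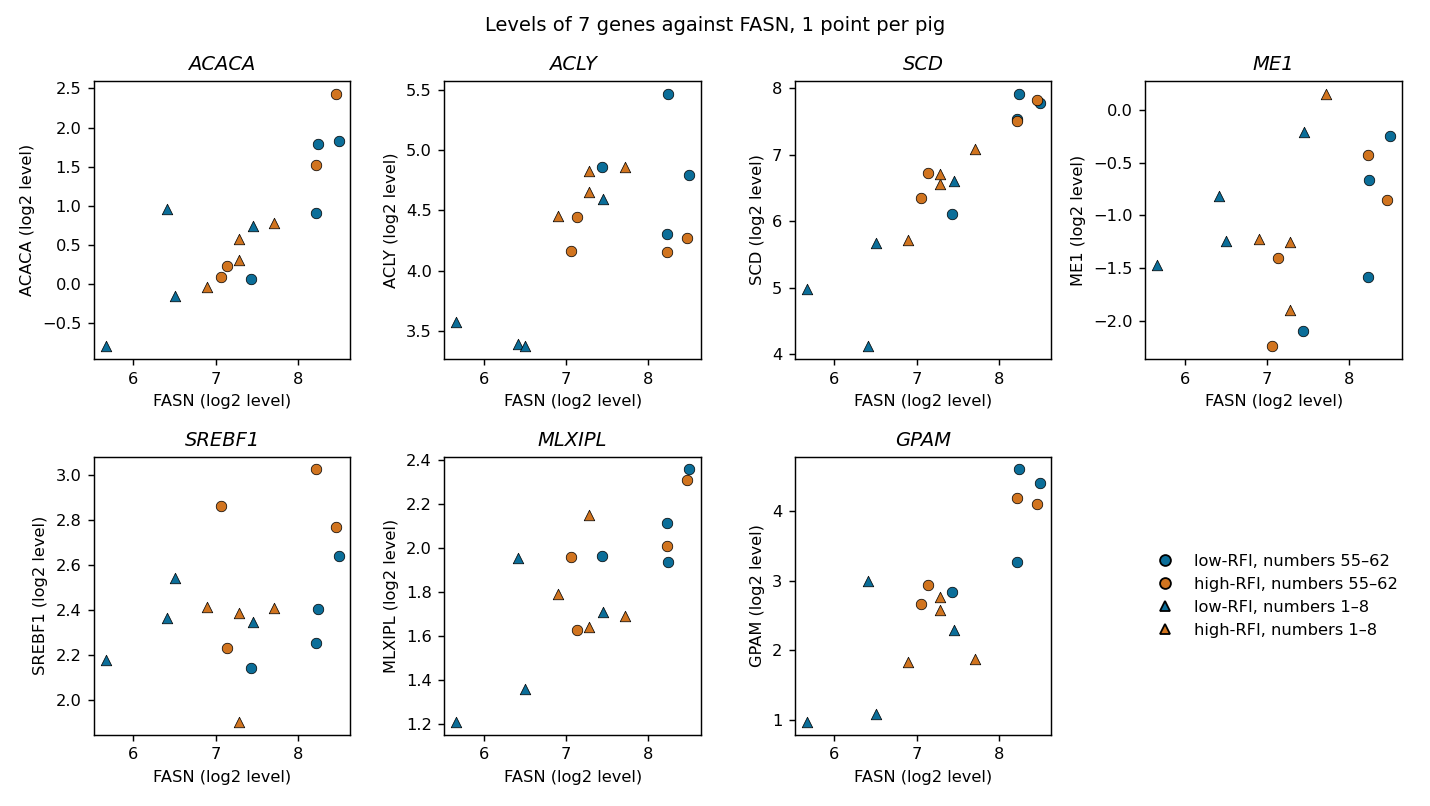
Level of each of the other 7 genes against that of FASN (log2), with 1 point per pig, colour for line and shape for run of file numbers. SCD follows FASN most closely, and 5 pigs of numbers 55 to 62 form the group at a FASN level of 8.22 to 8.499.

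Pairwise, 27 of the 28 pairs among the 8 genes had a positive Pearson r over the 16 pigs, with a median of 0.46. Over all pairs of 3965 named genes the median was 0.01, and 9.94% of those pairs reached the median of the 28. An r over 0.6 was reached by 11 of the 28, beside 3.85% of all pairs of named genes. Permutation tests with Benjamini-Hochberg adjustment over the 28 pairs called 12 by Pearson r and 9 by Spearman rho. The share of all gene pairs that such tests would call is not given here. Of the 28, 22 were positive within each run, the median r was 0.48 within numbers 55 to 62 and 0.33 within numbers 1 to 8, and it was 0.47 after the mean of each line and run had been removed.

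The closest pair was FASN and SCD, with r = 0.92 and rho = 0.93 (adjusted permutation p = 0.00014 and 0.00028). Within numbers 55 to 62 r was 0.91 and within numbers 1 to 8 it was 0.84, and without the 2 pigs farthest from the median of FASN it was 0.92. No pig lay between FASN levels of 7.72 and 8.22, and among the 11 pigs below that gap r was still 0.82. FASN and SCD, which act in sequence on the same fatty acid, thus went together in both runs.

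ACACA and GPAM had r = 0.86 and rho = 0.83 (adjusted permutation p = 0.00014 and 0.0028), with 0.92 in numbers 55 to 62 and 0.81 in numbers 1 to 8, and 0.84 without the 2 farthest pigs. FASN and ACACA had r = 0.84 and rho = 0.80 (adjusted permutation p = 0.000467 and 0.00401), with 0.91 and 0.70 in those runs and 0.76 without the 2 farthest pigs. Among the 11 pigs below the FASN gap, the r of FASN was 0.87 with ACLY, 0.62 with ACACA, 0.55 with MLXIPL, 0.53 with GPAM, 0.20 with ME1 and −0.02 with SREBF1. FASN and GPAM had r = 0.82 and rho = 0.71 (adjusted permutation p = 0.00056 and 0.0133), with 0.87 and 0.49 in those runs and 0.73 without the 2 farthest pigs. The r of FASN and GPAM was thus lower in numbers 1 to 8, and the difference between the runs was not tested. The same held for SCD with GPAM (r = 0.68, rho = 0.71, adjusted permutation p = 0.0116 and 0.0133), at 0.90 in numbers 55 to 62 and 0.08 in numbers 1 to 8, and for ACACA with SCD (r = 0.69, rho = 0.77, adjusted permutation p = 0.0114 and 0.00616), at 0.92 and 0.27. Without the 2 farthest pigs these r were 0.86 and 0.57.

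MLXIPL, the factor that responds to glucose, went with GPAM (r = 0.81, rho = 0.71, adjusted permutation p = 0.00101 and 0.0133), FASN (r = 0.76, rho = 0.63, adjusted p = 0.00327 and 0.0319) and ACACA (r = 0.73, rho = 0.63, adjusted p = 0.00484 and 0.0319). Without the 2 farthest pigs these r were 0.66, 0.57 and 0.54. In numbers 55 to 62 the r were 0.52 with GPAM, 0.76 with FASN and 0.68 with ACACA, and in numbers 1 to 8 they were 0.87, 0.54 and 0.65. SREBF1 was called with none of the other 7 genes by permutation test, and its highest r was 0.44, with ACACA (rho = 0.36, adjusted p = 0.166 and 0.291). The lowest r of all pairs was that of ACLY and SREBF1 (r = −0.19, rho = −0.30, adjusted permutation p = 0.508 and 0.386). At the level of the transcript MLXIPL was called with 3 of the enzymes and SREBF1 with 0, but the difference between their r was not tested. After the mean of each line and run had been removed, MLXIPL had r of 0.68 with GPAM, 0.53 with FASN and 0.64 with ACACA. SREBF1 had 0.30, 0.44 and 0.395 with the same genes.

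The relations of ACLY differed between r and rho. ACLY and SCD had r = 0.68 but rho = 0.46 (adjusted permutation p = 0.0116 and 0.16), with 0.20 in numbers 55 to 62, 0.87 in numbers 1 to 8 and 0.48 without the 2 farthest pigs. ACLY and FASN had r = 0.63 and rho = 0.52 (adjusted permutation p = 0.0206 and 0.0999), with 0.19 in numbers 55 to 62 and 0.86 in numbers 1 to 8, and 0.53 without the 2 farthest pigs. Neither passed by rho, and the 3 low-RFI pigs with the lowest ACLY all belonged to numbers 1 to 8. Within the low-RFI pigs the r of ACLY was 0.82 with SCD and 0.82 with FASN. Within the high-RFI pigs it was −0.18 with SCD and −0.27 with FASN. There it was also −0.29 with ACACA, −0.635 with GPAM, −0.52 with MLXIPL, −0.83 with SREBF1 and 0.26 with ME1. The positive r of ACLY over all 16 pigs were thus not seen within both lines, and the difference between the lines was not tested. ME1 was called by r with ACACA alone (r = 0.57, rho = 0.58, adjusted permutation p = 0.0497 and 0.0612). Its r with FASN was 0.80 in numbers 55 to 62 and 0.48 in numbers 1 to 8, against 0.39 over all 16 pigs (adjusted p = 0.215).

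**Figure D5:**
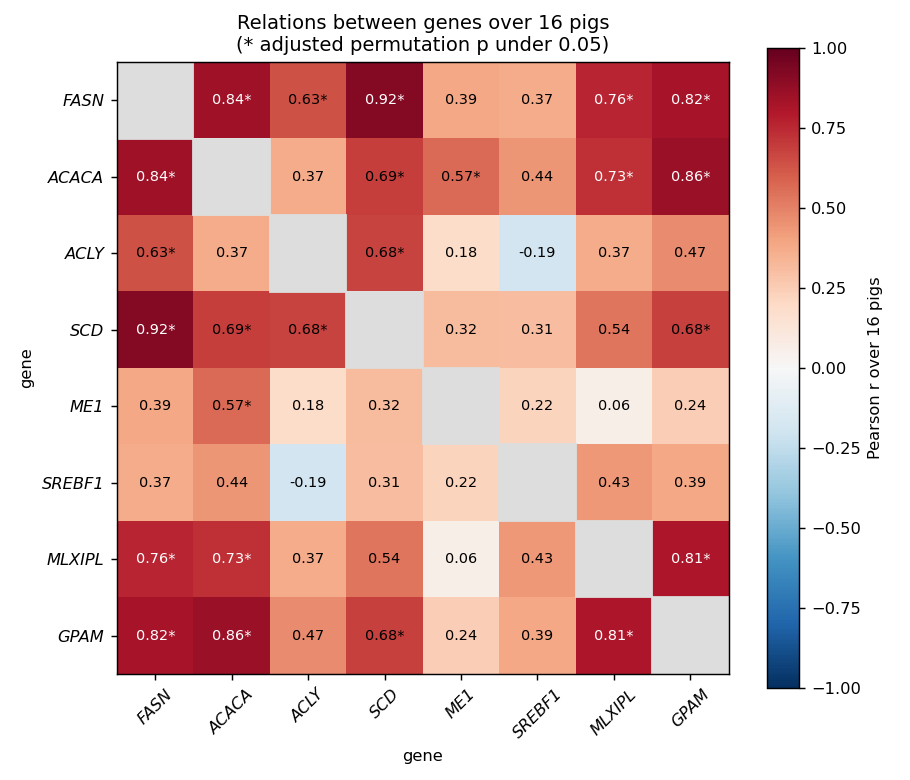
Pearson r between the levels of each pair of the 8 genes over 16 pigs, with an asterisk at an adjusted permutation p under 0.05. FASN, ACACA, SCD and GPAM form a block of r from 0.68 to 0.92, and the r of SREBF1 lie between −0.19 and 0.44.

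Separate probes of a gene ranked the pigs alike for most genes. The r between probes was 0.942 to 0.999 for the 9 of SCD, 0.95 to 0.98 for the 3 of FASN, 0.95 for GPAM, 0.76 to 0.95 for the 3 of ACLY, 0.88 for ME1 and 0.81 for ACACA. The probes of SREBF1 reached only 0.59, so the weak relations of SREBF1 hold for a transcript whose probes differ. Array measures went little with FASN over the 16 pigs, with r of −0.21 for noise, −0.29 for the number of probes well above background, −0.31 for the 75th percentile of signal and −0.35 for background. The summed level of muscle markers (3 of 4 tested) had an r of −0.53 with FASN, but singly ACTA1 had −0.57, CKM 0.36 and MYH7 0.47. For Kupffer cell markers (2 of 6 tested) the sum had −0.51, with −0.53 for CD163 and −0.34 for VSIG4, and for stellate cell markers (2 of 5 tested) −0.41. Pancreas markers (2 of 5 tested) had 0.45 in sum, with 0.51 for AMY2 and −0.14 for CPA1. The summed level of the muscle markers was 2.80 to 4.38 in numbers 55 to 62 and 3.11 to 3.96 in numbers 1 to 8, and that of the Kupffer cell markers 3.84 to 5.79 and 4.30 to 5.56. With array noise as a covariate 11 of 21 probes had a called slope on FASN, and SCD (1.15), ACACA (0.90) and GPAM (1.22) passed (limma adjusted p = 0.00266, 0.0358 and 0.0289). The share of all probes called in the fit with array noise is not given here. The part of the marker levels in the relations was not tested.

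Of 61 further genes of fatty acid and triglyceride synthesis that were listed, 37 were tested, and limma called 0 between the lines, with 17 higher and 20 lower in low-RFI livers, a median of −0.01 and 2 at an unadjusted p under 0.05. Over all tested probes 0.00997% were called and 5.45% had such a p, so the 2 of 37 lie near the share of the whole array. The smallest p on the lower side belonged to SLC27A2, a fatty acid transporter (−0.39, adjusted p = 0.723), the kinase subunit PRKAA2 (−0.18, adjusted p = 0.977) and the lipase PNPLA3 (−1.15, adjusted p = 0.977). On the higher side they belonged to GPAT4, an acyltransferase of the endoplasmic reticulum (+0.25, adjusted p = 0.907), the phosphatase LPIN2 (+0.28, adjusted p = 0.967) and DGAT2, which completes triglyceride (+0.30, adjusted p = 0.979). Between the runs, 1 of 37 was called by limma, near the 1.93% of all tested probes: ACSL4, which activates long-chain fatty acids, rose by 1.76 in numbers 55 to 62 (adjusted p = 0.0463).

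On the FASN level, 8 of these 37 passed, 6 with a positive and 2 with a negative slope, beside 0.861% of all probes so tested (0.588% positive). The positive ones were ACSS2, which makes acetyl-CoA from acetate (1.37, adjusted p = 0.000136), PNPLA3 (1.89, adjusted p = 0.000418) and ACSL4 (1.26, adjusted p = 0.0228). They also included the desaturase FADS1 (0.69, adjusted p = 0.0228), PGD of the NADPH-yielding pentose phosphate pathway (0.49, adjusted p = 0.0286) and the fatty acid binding protein FABP1 (0.51, adjusted p = 0.036). The negative ones were PLIN2, a coat protein of lipid droplets (−0.62, adjusted p = 0.00248), and pyruvate carboxylase, PC (−0.74, adjusted p = 0.0239), all by limma. The run of file numbers was not in this fit. Changes between the runs were +1.49 for ACSS2, +1.80 for PNPLA3, +1.76 for ACSL4 and +0.76 for FADS1. They were +0.40 for PGD, +0.68 for FABP1, −0.62 for PLIN2 and −0.81 for PC, and only that of ACSL4 was called. The part of the run in these slopes was not tested.

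Among 12 tested genes of the fasted and fed liver, CPT1A, which admits fatty acids into mitochondria for oxidation, was the only 1 with a called slope on FASN (−0.72, limma adjusted p = 0.0326). By permutation over the 16 pigs, adjusted over the 12 genes, CPT1A had r = −0.79 and rho = −0.77 with FASN (adjusted p = 0.003 and 0.00828), with −0.58 in numbers 55 to 62, −0.71 in numbers 1 to 8 and −0.77 without the 2 farthest pigs. PDK4, which blocks pyruvate oxidation, went the other way, with r = 0.65 and rho = 0.66 (adjusted p = 0.0303 and 0.0202; 0.55 and 0.59 in those runs, 0.69 without the 2 farthest pigs). PPARGC1A, a coactivator of the fasting response, had r = 0.62 and rho = 0.68 (adjusted p = 0.0303 and 0.0202; 0.77 and 0.21 in those runs, 0.61 without the 2 farthest pigs).

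The signs were thus mixed among the fasting genes. For 8 others, r was 0.53 for PCK2, 0.40 for IGFBP1, 0.33 for G6PC, 0.32 for PPARA, 0.25 for IGFBP2, 0.20 for FGF21, 0.16 for PCK1 and −0.49 for ANGPTL4, with adjusted permutation p of 0.0819 to 0.554. Within the runs, ANGPTL4 had r of 0.66 in numbers 55 to 62 and −0.22 in numbers 1 to 8. For PCK1, IGFBP1, IGFBP2, G6PC and FGF21, r was 0.51 to 0.705 in numbers 55 to 62. In numbers 1 to 8 it was −0.40 to −0.03 for these genes. PCK2 and PPARA had a positive r in both runs. The differences between the runs were not tested. Between the runs limma called 2 of the 12, beside 1.93% of all tested probes, both lower in numbers 55 to 62, namely CPT1A (−1.04, adjusted p = 0.0463) and ANGPTL4, an inhibitor of lipoprotein lipase (−1.34, adjusted p = 0.0355). It called 0 between the lines, with 0 of 12 at an unadjusted p under 0.05. The labels give ad libitum feeding for every pig and no time since the last meal.

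Of 3957 other named genes, those most like the mean of the 8 standardised levels over 16 pigs by Pearson r were ACSS2 (0.94), TTC7B (0.93), UPB1 (0.90), CYP51 of cholesterol synthesis (0.88), BSG (0.87), CLSTN3 (0.86), FADS1 (0.85), VPS28 (0.85), NEIL1 (0.84) and DHDH (0.83). Those with the lowest r were FCN1 (−0.89), PLIN2 (−0.87), MSN (−0.86), DEFB1 (−0.85) and NOD1 (−0.83). These genes were picked for their r, which is given without a test. Within the runs the r of ACSS2 was 0.92 in numbers 55 to 62 and 0.88 in numbers 1 to 8, and that of FCN1 was −0.85 and −0.88. The line changes of these 15 genes had adjusted p of 0.979 or more by limma.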

How the data were processed

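Fluorescence intensities of 16 arrays come from the scanner software, Agilent Feature Extraction 10.7.3.1, and were deposited as background-subtracted, detrended processed signals, per the file headers. The authors also deposited a series table of log2 values, which equals log2 of the processed signal minus the median of its 27938 spots on each array (largest difference 4.48e-08). The submitters' processing notes name R 2.10.0. Here log2 of the processed signal minus the 75th percentile of each array was used, with outlier spots left out and spots of a probe averaged. Probes well above background on at least 8 of 16 arrays entered the tests, made with limma (version 3.58.1, R 4.3.3). P-values were adjusted by Benjamini-Hochberg across every probe in the test, and 0.05 was the limit for a call. The fits were line alone, line and run of file numbers, their interaction, and line with FASN level. Correlations used 100000 permutations over pigs, for which 1e-05 is the smallest unadjusted p. Scripts were checked on simulated data. The members and lists were chosen with earlier results of these data known. Named genes were all members, each represented by its brightest tested probe, other synthesis genes called in a fit or among the 3 smallest p in each direction between lines, the 10 named genes with the highest and the 5 with the lowest r to the members' mean, and all tested fasting genes, of which 1 is not reported here. The rule matched members by symbol, and 7 probes matched by accession or written-out name were added later. Alternatives were other background corrections, scalings, filters, outlier handling, variance models, array weights, slide and replicate blocks, the run as covariate, the mean over a gene's probes, the authors' table, and leaving out each pig. Array noise as covariate, leaving out the marked arrays and residuals from line and run were chosen after seeing the data. Figures were drawn with matplotlib 3.10.9.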

Additional observations from a re-analysis of the deposited data

How the results depend on the processing

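Between the lines 0 of 24 probes were called under all 14 alternatives and without any single pig, and 9 to 15 of 21 probes had a called slope on FASN, with the brightest SCD probe called each time. Of these 21 probes, 9 are of SCD. For the slope, the share of all probes called under each alternative is not given here. Over the whole array, 3 probes were called between lines, against 1 with normexp, 1 with the filter on all 16 arrays, 7 with array weights, 0 with array noise as a covariate, 0 without the marked arrays and 2 to 5 without single pigs. Between the runs, 2 of the 24 probes were called, against 1 with no filter, 1 with the slide block, 4 with array weights, 0 with array noise, 0 without the marked arrays and 0 to 6 without single pigs. Over the whole array 581 probes were called between runs, against 255 with normexp, 42 with no filter, 175 with the slide block, 1608 with array weights, 33 with array noise, 7 without the marked arrays and 33 to 1692 without single pigs. The causes were not tested. The line change turned sign for ACACA (0.135) and GPAM (0.234) with array weights, and for ME1 with the mean over its probes (−0.224), array noise (−0.09) and without the marked arrays (−0.059). The ME1 difference between runs turned sign with median scaling (0.024), array noise (0.061) and without the marked arrays (1.492). Without single pigs the line change ran from −0.374 to 0.031 for FASN, −0.236 to 0.171 for ACACA, −0.054 to 0.289 for ME1, −0.148 to 0.017 for MLXIPL and −0.318 to 0.202 for GPAM, and the difference between runs from −0.025 to 0.757 for ACACA and −0.438 to 0.281 for ME1. With the replicate number as a block, 0 of 24 probes and 4 on the whole array were called between lines (FASN −0.203, limma adjusted p = 0.873). Same-numbered pigs of the lines correlated in their deviations by 0.047 to 0.395, against a median of −0.039 for other numbers, and 5 of 8 low-RFI pigs correlated best with their own number, which is a hint of pairing from the data. The numbers were not taken to pair pigs because the labels do not say so and only 6 of 8 exceeded 0.1, where all were required to. The replicate numbers lie within runs, so the run comparison has no such block. All 24 probes were well above background on every array.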
